A study of Mus musculus with 8 samples.

Results

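A set of 10 genes of blood vessel endothelium was followed in whole lung of wild-type and Scgb3a2-transgenic mice. They were Myct1, Esm1, Pecam1, Cdh5, Kdr, Tek, Tie1, Cldn5, Vwf and Eng, out of 20920 gene symbols in the annotated probe table, and the members were found by their symbol there. The symbols picked 13 probes, and 3 more probes of Pecam1, Cdh5 and Tek were found by transcript accession, which made 16 of the 41174 probes on the arrays. Myct1 and Esm1 were chosen by their measured log2 difference in this same comparison, in which both had been higher in transgenic lungs, so their difference is described here and carries no test. The other 8 genes are general endothelial markers, and the question was whether they differed between the genotypes as well.

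Endothelial cells line all blood vessels, and in the lung most of them form the capillary net around the alveoli. They hold together through junction proteins such as VE-cadherin and claudin 5, and they respond to vascular endothelial growth factor (VEGF) and to angiopoietins through receptor tyrosine kinases. Myct1 encodes a membrane protein found mainly in endothelium, and Esm1 encodes endocan, a proteoglycan secreted by endothelial cells and known for its presence in the tip cells of growing vessels.

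Both groups were male C57BL/6 mice without treatment, given as 8 to 10 weeks of age, with 4 mice in each. The transgenic mice carried the mouse Scgb3a2 coding sequence behind the human surfactant protein C promoter, which is active in alveolar type II cells, and the line was made in C57BL/6NCr eggs and goes back to a single founder. Total RNA of whole lung from 1 mouse was labeled with Cy5 on each array, and a common pool of equal amounts of all samples was labeled with Cy3, with no dye swap. A slide held 1 array of each genotype, and scanning of the 4 slides took 2 days. All values are log2 ratios of the sample over the pool, so that 0 is the level of the pool and a difference of 1 between genotypes is a 2-fold change. In whole lung RNA a smaller number of endothelial cells and less RNA per endothelial cell cannot be told apart.

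Precision is limited by the number of arrays. On each array 32257 to 34709 probes had a sample signal well above background, and 1.72% to 6.46% of the spots carried an outlier flag of the scanner software, for uneven pixels or for disagreement with other spots of the same probe. Flagged spots were left out, which fell on bright probes: between 0.327% and 0.521% of the dimmer spots (the lower 50% by signal) were left out per array, but between 9.75% and 41.6% of the brightest 10%. Of the values of the 16 probes, 13 of 64 were left out on the wild-type arrays and 10 of 64 on the transgenic arrays. The log2 ratios of a pair of arrays of the same genotype differed with an SD over probes of 0.191 to 0.39. Scgb3a2 itself lay at 0.01, -0.39, 0.58 and -0.56 on the wild-type arrays and at 1.26, 0.47, 0.70 and 0.74 on the transgenic arrays. Its difference was 0.88 (SE 0.24), 1.84-fold. In limma p was 0.00329 unadjusted and 1 after Benjamini-Hochberg adjustment. The mean was higher with the transgene, but wild-type replicate 3 lay above transgenic replicate 2.

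The promoters of 3 members are shown because Myct1, Esm1 and Kdr had the largest differences among the 10 genes. RefSeq sequences of GRCm38.p6 were at hand for 7 of the 10 members. The windows hold the 250 bases before the transcription start in the direction of the gene, at chr10:5593478-5593727 (plus strand) for Myct1, chr13:113209409-113209658 (plus strand) for Esm1 and chr5:75978456-75978705 (minus strand) for Kdr. Capitals mark CCGGAA, a longer form of the binding motif of ETS factors, or TTCCGG where it lies on the other strand. The shorter GGAA within it was not searched for and is left unmarked where it occurs alone. ETS factors are a family of transcription factors that includes Erg and Fli1 of the endothelium.
Myct1: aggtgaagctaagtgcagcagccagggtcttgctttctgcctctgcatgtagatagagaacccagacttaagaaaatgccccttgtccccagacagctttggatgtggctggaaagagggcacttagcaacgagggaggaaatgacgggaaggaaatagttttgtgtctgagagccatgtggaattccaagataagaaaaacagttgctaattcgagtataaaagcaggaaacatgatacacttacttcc
Esm1: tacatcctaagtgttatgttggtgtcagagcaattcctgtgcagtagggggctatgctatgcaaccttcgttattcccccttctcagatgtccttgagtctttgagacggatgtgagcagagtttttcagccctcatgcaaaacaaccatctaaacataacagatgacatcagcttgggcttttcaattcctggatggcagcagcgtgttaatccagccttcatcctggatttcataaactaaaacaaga
Kdr: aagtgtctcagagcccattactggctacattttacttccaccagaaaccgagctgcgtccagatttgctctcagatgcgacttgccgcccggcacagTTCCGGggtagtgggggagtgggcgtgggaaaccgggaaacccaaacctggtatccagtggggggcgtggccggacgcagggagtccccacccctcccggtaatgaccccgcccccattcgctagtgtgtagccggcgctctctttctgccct
The form CCGGAA was present in the Kdr window, where it started 153 bases before the transcription start. It was in none of the windows of Myct1, Esm1, Tek, Tie1, Cldn5 and Eng. It was present in 3952 of 32851 promoter windows of the same length, or 12%. These letters say nothing about a factor that is bound there.

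Myct1 was measured by 1 probe. On the wild-type arrays its log2 ratio was 0.03 in replicate 1, -0.08 in replicate 2 and -0.85 in replicate 3, and the spot of replicate 4 was left out for uneven pixels in the Cy5 channel. The 4 transgenic arrays lay at 0.71, 0.56, 0.46 and 0.45. All measured transgenic values were above all measured wild-type values, and the transgenic arrays lay close together while wild-type replicate 3 was far below the others. The means were -0.30 ± 0.48 (SD, n = 3) and 0.54 ± 0.12 (SD, n = 4), and the difference was 0.84 (SE 0.19), 1.79-fold. This difference was the 49th highest among the 32645 probes tested. Of the 29494 probes with values on all 8 arrays, 0.915% had all transgenic above all wild-type values, and nothing can be read from these figures together, since Myct1 was chosen for being higher.

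The spot left out decides how separate the groups of Myct1 were. With flagged spots kept, wild-type replicate 4 lay at 0.55, above transgenic replicates 3 and 4. The groups then overlapped, as they did for all but 1.45% of all probes treated in this way, and the difference was 0.63 (SE 0.23), 1.55-fold. In the authors' processed matrix, which holds a value for this spot, wild-type replicate 4 lay at 0.64 and the transgenic arrays between 0.48 and 0.54, so that the highest value of all 8 belonged to a wild-type mouse.

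Esm1 was also measured by 1 probe. The wild-type arrays lay at 0.33, -0.13 and 0.07 in replicates 1 to 3, and replicate 4 was again left out for uneven Cy5 pixels. The transgenic arrays lay at 0.79, 0.80, 0.64 and 0.68, all above the measured wild-type arrays. The means were 0.09 ± 0.23 (SD, n = 3) and 0.73 ± 0.08 (SD, n = 4), and the difference was 0.64 (SE 0.13), 1.56-fold, the 98th highest of all probes tested. Once the spot was kept, wild-type replicate 4 lay at 0.636, just under the lowest transgenic value of 0.640, and the difference was 0.50 (SE 0.15), 1.42-fold. In the authors' matrix that array was at 0.77 and the transgenic arrays at 0.68 to 0.77, and the groups overlapped. For both genes, then, 3 wild-type mice lay below the transgenic mice, and replicate 4 lay close to them, below, inside or above their range depending on the gene and the processing.

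**Figure D1:**
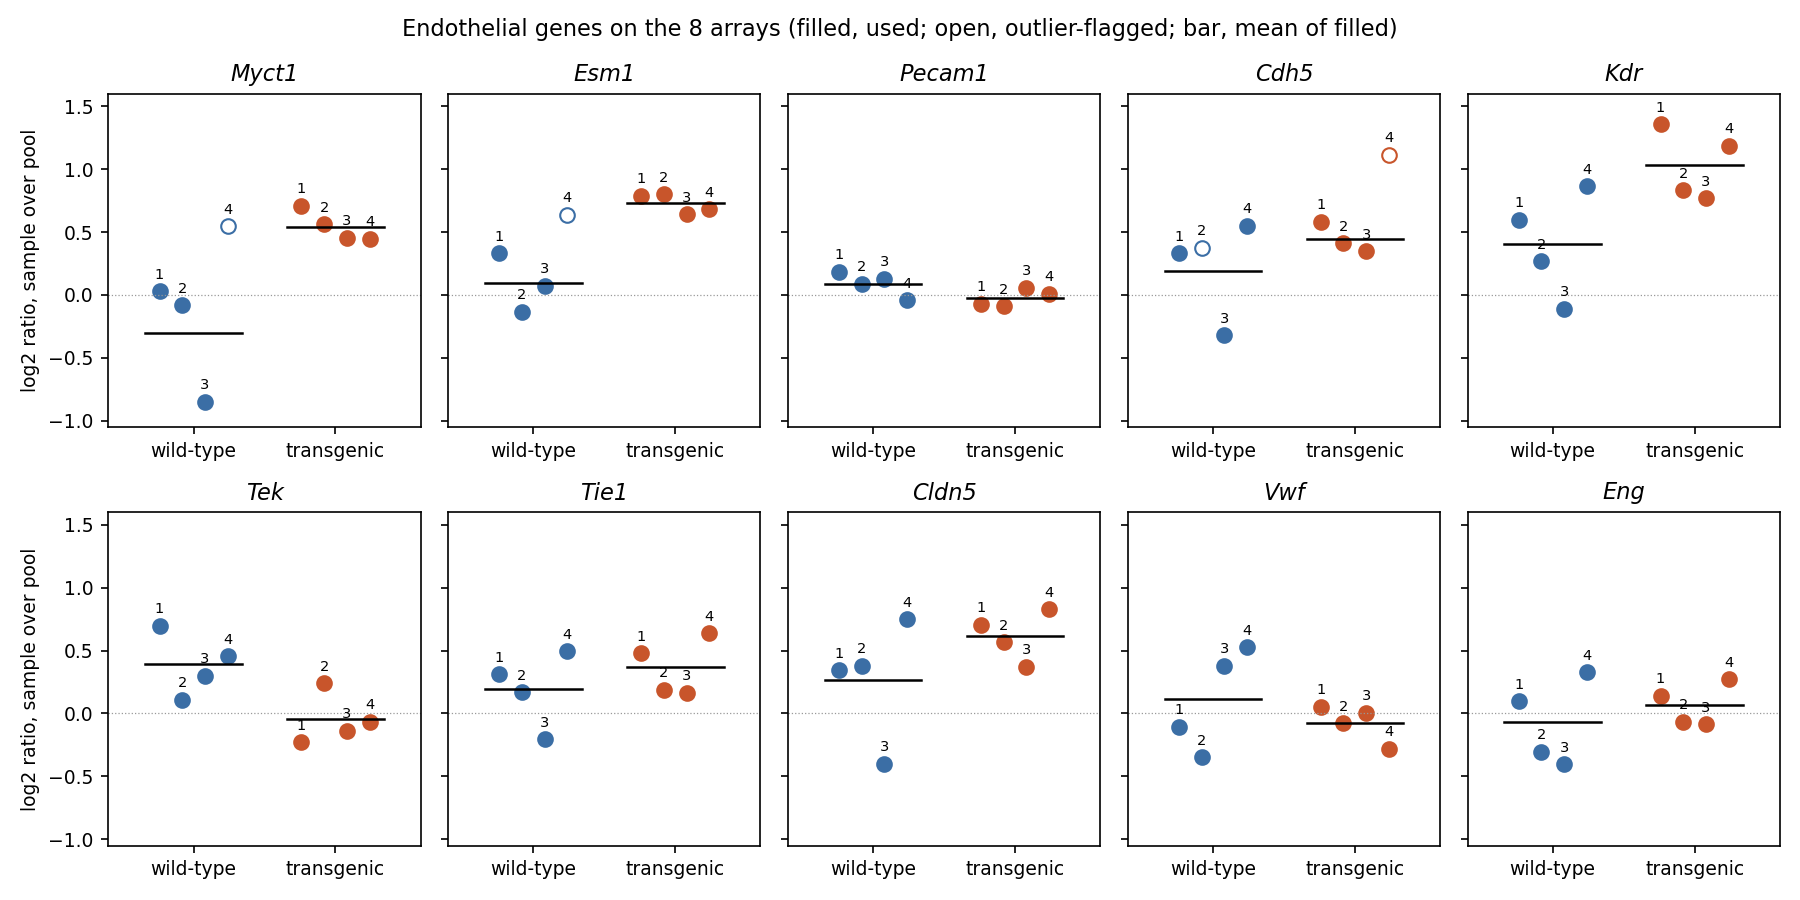
Log2 ratio of sample over pool (vertical axis) of each of the 10 genes on the 4 wild-type (blue) and 4 transgenic (orange) arrays. Each gene is shown by the brightest probe listed under its symbol, with the replicate number above each point. Open circles are spots with an outlier flag, which were left out, and bars are means of the filled points. Wild-type replicate 4 of Myct1 (0.55) and Esm1 (0.64) sits with the transgenic arrays when its flagged spot is shown, and wild-type replicate 3 is the lowest of all arrays for 6 of the 10 genes.

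None of the 8 general endothelial markers passed the test, and 2 of them, Kdr and Tek, differed with an unadjusted p under 0.05 and in opposite directions. In limma 0 of the 8 had an adjusted p under 0.05, as had 0 of all 32645 probes (0%), and at an unadjusted p under 0.05 the share over all probes was 2.09%, with 1.12% higher and 0.974% lower. By the brightest probe listed under each symbol the difference was above 0 for 5 markers and below 0 for 3. Its median was 0.16, while 50.4% of all probes were higher and their median difference was 0.0010. Brighter probes of Pecam1, Cdh5 and Tek were found by accession. With the brightest probe of any kind and flagged spots kept, 7 markers were higher and 1 was lower, with a median of 0.19. Of all probes 49.2% were then higher. The groups overlapped for each of the 8 markers, whereas 1.46% of all probes with 8 values had groups that did not overlap. By the probes under the symbols, keeping flagged spots left Kdr and Tek as the 2 markers with an unadjusted p under 0.05 in limma. With the brightest probe of any kind 1 marker had such a p, against 2.04% of all probes.

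Kdr encodes VEGF receptor 2, the main signaling receptor for VEGF on endothelium, and it had the largest difference of the 8. Its probe was spotted 10 times on each array. The wild-type arrays lay at 0.60, 0.27, -0.11 and 0.86 and the transgenic arrays at 1.35, 0.83, 0.77 and 1.19. The transgenic arrays were the higher ones except that wild-type replicate 4 was above replicates 2 and 3 of the transgenic group. The means were 0.40 ± 0.42 and 1.04 ± 0.28 (SD, n = 4 each). The difference was 0.63 (SE 0.20, 95% interval 0.18 to 1.08), 1.55-fold, the 100th highest of all probes tested. In limma p was 0.00979 unadjusted and 1 after Benjamini-Hochberg adjustment, and the exact two-sided permutation test over the arrays gave p = 0.0857, where 4 against 4 allow no less than 0.0286. A second Kdr probe, from an Ensembl transcript, stayed near background on all arrays.

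Tek and Tie1 encode the receptors of the angiopoietin system, Tek being the receptor that binds angiopoietins and Tie1 its partner. The brightest Tek probe by symbol was designed on a cDNA clone. It lay at 0.70, 0.11, 0.30 and 0.45 on the wild-type arrays and at -0.23, 0.24, -0.14 and -0.06 on the transgenic arrays. 3 transgenic arrays were below all wild-type arrays and transgenic replicate 2 was above wild-type replicate 2. The difference was -0.44 (SE 0.14, 95% interval -0.75 to -0.12), 1.35-fold lower. In limma p was 0.0113 unadjusted and 1 after Benjamini-Hochberg adjustment, and the exact permutation test gave p = 0.0571.

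A brighter Tek probe, which was found by its RefSeq accession, did not show this difference. It was flagged on 5 of the 8 arrays. All spots included, it lay at 0.18, 0.33, -0.63 and 0.36 on the wild-type arrays and at -0.37, 0.21, 0.23 and 0.45 on the transgenic arrays, and the difference was 0.07 (SE 0.23, 95% interval -0.44 to 0.58). Over all arrays together the lower level of Tek thus belonged to 1 of its 2 probes. Within slides the brighter probe differed by 1.08 on slide 1, which carried wild-type replicate 3, with flagged spots kept. On slides 2, 3 and 4 it differed by -0.55, -0.13 and -0.13. Tie1 lay at 0.31, 0.17, -0.20 and 0.49 against 0.48, 0.19, 0.17 and 0.64, a difference of 0.18 (SE 0.16, 95% interval -0.18 to 0.53).

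Junction proteins were measured by Cdh5 (VE-cadherin), Cldn5 (claudin 5) and Pecam1 (CD31, an adhesion molecule of the cell border). Cldn5 lay at 0.34, 0.38, -0.40 and 0.75 on the wild-type arrays and at 0.70, 0.57, 0.37 and 0.83 on the transgenic arrays. Its difference was 0.35 (SE 0.21, 95% interval -0.11 to 0.81), with an unadjusted p of 0.120 in limma. Wild-type replicate 3 was the one array far below the others. Cdh5 lay at 0.33, -0.32 and 0.55 in wild-type replicates 1, 3 and 4 and at 0.58, 0.41 and 0.35 in transgenic replicates 1 to 3, with the other array of each genotype left out. The difference was 0.26 (SE 0.21, 95% interval -0.21 to 0.73). When they were kept, wild-type replicate 2 came in at 0.37 and transgenic replicate 4 at 1.11, and the difference was 0.38 (95% interval -0.08 to 0.84). Its other probe, flagged on 7 of 8 arrays, differed by 0.27 (95% interval -0.47 to 1.01) with these spots kept.

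Pecam1 was poorly served by the probe that carries its symbol. The annotated table describes that probe's cDNA clone as a disintegrin and metalloprotease, and its median signal in the sample channel was 96.8 over a background of 58. Its wild-type values ran from -0.04 to 0.19 and its transgenic values from -0.09 to 0.06, and it differed by -0.11 (SE 0.10, 95% interval -0.32 to 0.10). The Pecam1 probe that matches a RefSeq transcript was spotted 10 times and had a median signal of 9957, but all of its spots were left out on 5 arrays. When these were kept it lay at 0.12, 0.38, -0.85 and 0.24 on the wild-type arrays and at -0.19, 0.11, 0.16 and 0.64 on the transgenic arrays. The groups overlapped widely, and the difference was 0.21 (SE 0.26, 95% interval -0.35 to 0.77).

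Eng encodes endoglin, a co-receptor of the transforming growth factor beta family, and Vwf encodes von Willebrand factor, the clotting protein stored by endothelium of larger vessels. Eng lay at 0.10, -0.30, -0.41 and 0.33 on the wild-type arrays and at 0.14, -0.07, -0.08 and 0.27 on the transgenic arrays, a difference of 0.14 (SE 0.16, 95% interval -0.22 to 0.49). Vwf lay at -0.11, -0.35, 0.38 and 0.53 against 0.05, -0.08, 0.01 and -0.28, a difference of -0.19 (SE 0.18, 95% interval -0.58 to 0.21). Here wild-type replicates 3 and 4 were the 2 highest arrays and replicate 2 the lowest, an order unlike that of the other markers. The 2 other Vwf probes differed by 0.09 (SE 0.14), with 2 wild-type arrays left out, and by -0.16 (SE 0.16), and the first of them turned to -0.24 (SE 0.17) with flagged spots kept.

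**Figure D2:**
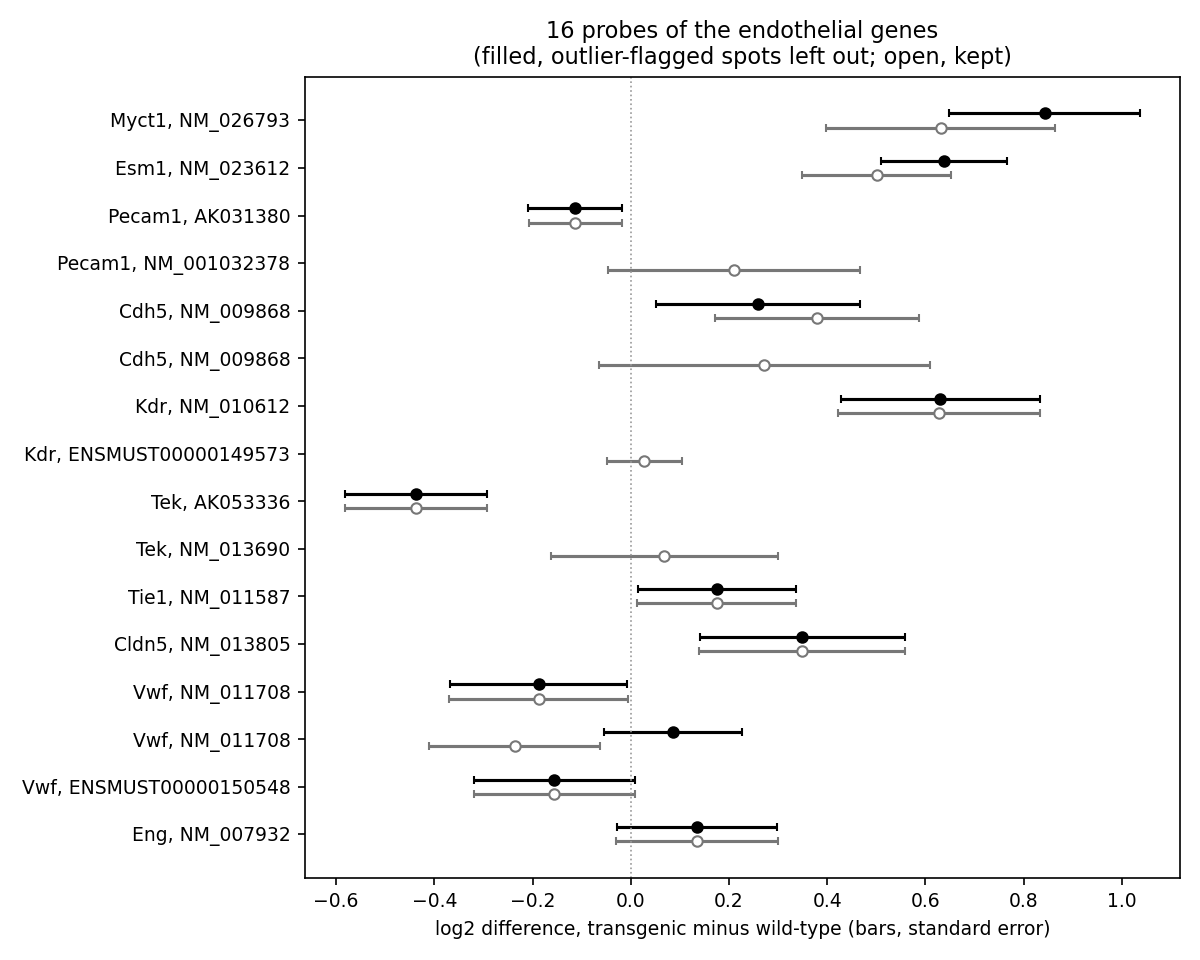
Log2 difference between transgenic and wild-type lungs (horizontal axis) for the 16 probes of the 10 genes, with standard errors from limma. Filled points leave out spots with an outlier flag and are shown for the 12 probes that passed the filter, and open points keep these spots. Myct1 moves from 0.84 to 0.63 and Esm1 from 0.64 to 0.50, and the brighter probes of Pecam1 (0.21) and Tek (0.07) lie on the other side of 0 from the probes listed under these symbols.

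The spread of the markers lay more in the wild-type group than in the transgenic group. The mean log2 ratio of the 8 markers was 0.31, 0.05, -0.08 and 0.49 on the wild-type arrays and 0.38, 0.25, 0.19 and 0.37 on the transgenic arrays. The SD was 0.255 in the wild-type and 0.0929 in the transgenic group (n = 4 each). These transgenic means all lay inside the range of the wild-type means. The means of wild-type replicate 2 and transgenic replicate 4 lack Cdh5, whose flagged spots were left out there. From the brightest probe of any kind for each gene, flagged spots kept, the means were 0.22, 0.16, -0.43 and 0.51 against 0.27, 0.23, 0.23 and 0.56. Transgenic replicate 4 then lay above the highest wild-type array. By these values 7 of the 8 markers were higher in transgenic lungs, and the median difference was 0.19. By the brightest probe under each symbol, wild-type replicate 3 was the lowest of all 8 arrays for 6 of the 10 genes. These were Myct1, Cdh5, Kdr, Tie1, Cldn5 and Eng. By the same probes wild-type replicate 4 was the highest of its group for 8 of the 10, with flagged spots kept.

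Without wild-type replicate 3 the differences were 0.57 for Myct1, 0.63 for Esm1, 0.46 for Kdr, 0.13 for Cldn5, 0.04 for Tie1, 0.02 for Eng and 0.0055 for Cdh5, and the median of the 8 markers was 0.01. Kdr then had an unadjusted p of 0.0282 and Tek, at -0.47, of 0.0148 in limma. Without wild-type replicate 4 the median was 0.27, Kdr differed by 0.78 and Cldn5 by 0.51, the latter with an unadjusted p of 0.0263 in limma. The Myct1 and Esm1 spots of that array were left out from the start, so leaving it out could not change their values. Once wild-type replicate 3 was out, the differences of Cdh5, Tie1 and Eng were within 0.05 of 0. For Cdh5 this compared wild-type replicates 1 and 4 with transgenic replicates 1 to 3. The flagged spots of wild-type replicate 2 (0.37) and transgenic replicate 4 (1.11) were left out, so its value depends on them too.

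The comparison within slides, each with 1 mouse of both genotypes, showed the same division. On slide 1, which carried wild-type replicate 3, transgenic minus wild-type was 1.29 for Myct1, 1.30 for Kdr, 1.23 for Cldn5, 0.84 for Tie1 and 0.68 for Eng. On slide 4, which carried wild-type replicate 4, it was -0.09 for Kdr, -0.38 for Cldn5, -0.33 for Tie1 and -0.41 for Eng, and with flagged spots kept -0.09 for Myct1 and 0.0041 for Esm1. On slides 2 and 3 Myct1 differed by 0.68 and 0.64, Esm1 by 0.46 and 0.93 and Kdr by 0.76 and 0.56. The transgenic array was thus the higher one on 3 of 4 slides for Kdr, Tie1, Cldn5 and Eng, and for Myct1 with flagged spots kept, and on all 4 slides for Esm1 with flagged spots kept. Of all probes with 8 values 6.08% were higher on all 4 slides and 26.1% on 3. The brighter probes of Pecam1, Cdh5 and Tek, flagged spots kept, were higher on slide 1, by 1.49, 1.95 and 1.08, and lower on each of the 3 other slides, by between -0.08 and -0.55.

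The scan days split in the same way, since slides 1 and 2 were scanned on the first day and slides 3 and 4 on the second. Kdr differed by 1.03 on the first day and by 0.24 on the second, Cldn5 by 0.79 and -0.10, Tie1 by 0.50 and -0.15 and Eng by 0.36 and -0.09. Myct1 differed by 0.99 and 0.59, or 0.99 and 0.28 with flagged spots kept, and Esm1 by 0.53 and 0.85, or 0.53 and 0.47. Tek by its cDNA clone probe was lower on both days, by -0.64 and -0.23. Scan day and the mice scanned on it cannot be told apart with 2 mice of each genotype a day.

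**Figure D3:**
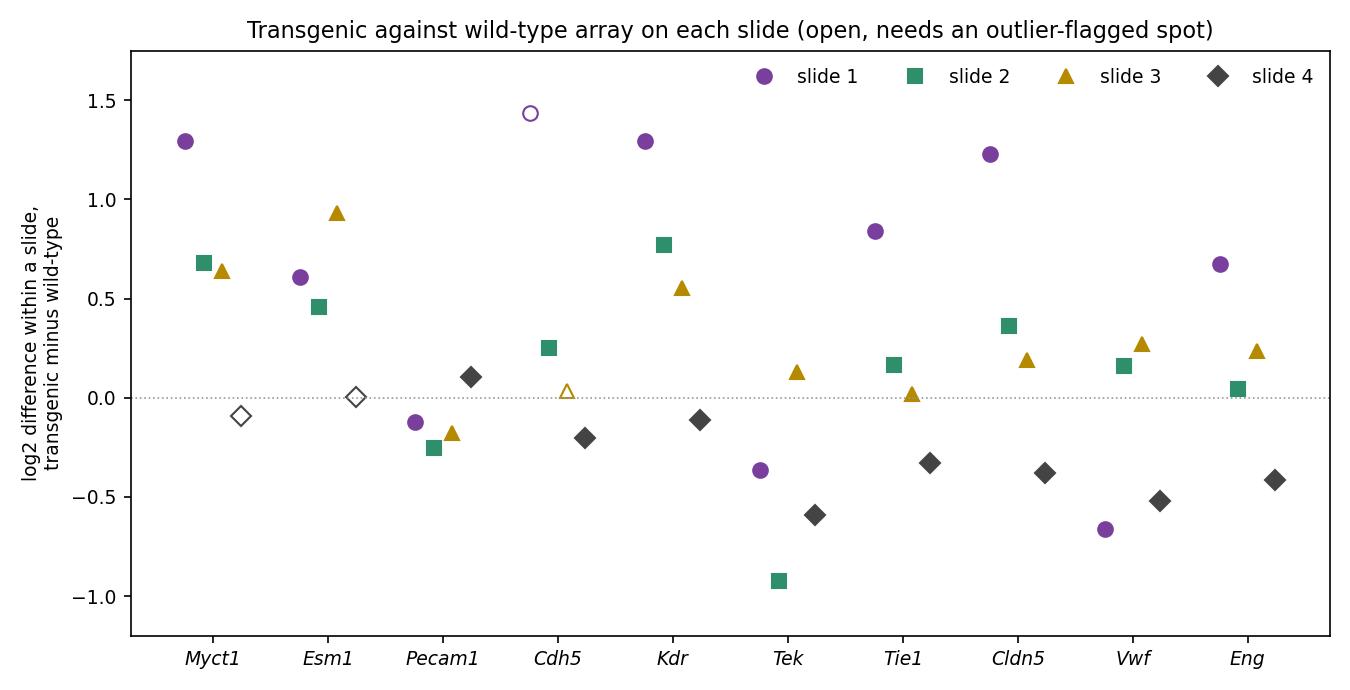
Log2 difference between the transgenic and the wild-type array of the same slide (vertical axis) for the 10 genes on 4 slides. Each gene is shown by the brightest probe listed under its symbol. Open symbols rest on a spot with an outlier flag. Slide 1 gives the highest values for Myct1, Cdh5, Kdr, Tie1, Cldn5 and Eng, and slide 4 gives values below 0 for the same 6 genes.

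How the markers varied together over the mice depended on the probes and spots used. With flagged spots left out and the brightest probe by symbol, the correlation of log2 ratios between the 8 markers had a median of -0.06 over 28 pairs, from -0.68 to 0.99. There Pecam1 correlated at -0.61 with Cdh5, at -0.68 with Kdr and at -0.66 with Cldn5, and Tek at -0.20 with Cdh5 and at -0.46 with Kdr. Taking the brightest probe of any kind for each gene and keeping flagged spots, the correlation of log2 ratios over the 8 arrays between 7 markers without Vwf had a median of 0.82 over 21 pairs, from 0.33 to 0.97. Vwf correlated with these at -0.59 to 0.09. Myct1 followed Kdr at 0.92 and Cldn5 at 0.92, and Esm1 followed Kdr at 0.86 and Myct1 at 0.83. Esm1 followed Cdh5 at 0.35 and Pecam1 at 0.25. These figures describe at most 8 arrays that share the common pool and the difference between genotypes, and no p is given.

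**Figure D4:**
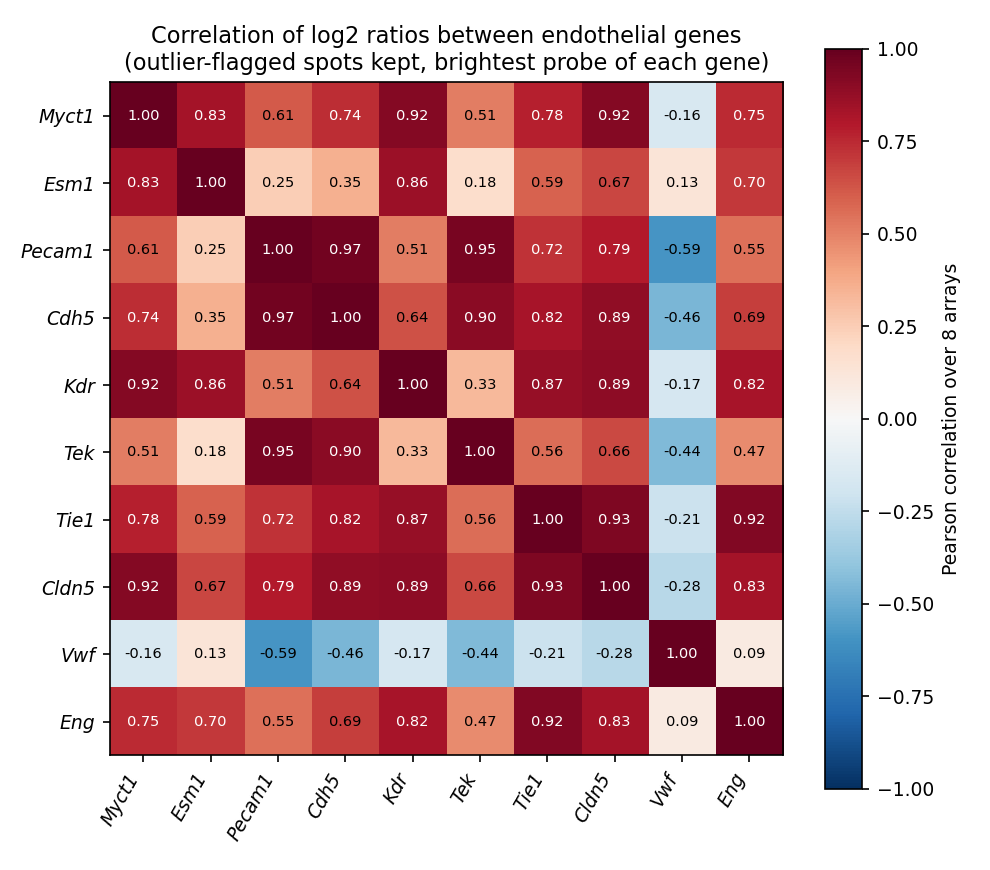
Pearson correlation of log2 ratios over the 8 arrays between each pair of the 10 genes, with the brightest probe of any kind for each gene and flagged spots kept. Color runs from -1 (blue) to 1 (red). Vwf stands apart from the other markers, and Pecam1, Cdh5 and Tek correlate with each other at 0.90 to 0.97, whereas by their probes under the symbol and without flagged spots these 3 pairs lie at -0.61 (Pecam1 and Cdh5), -0.20 (Cdh5 and Tek) and 0.45 (Pecam1 and Tek).

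The patterns most like a member were sought among 25890 other probes with a symbol and 8 values. Over the 7 arrays on which Myct1 was measured, the closest were F2rl2, Olfr531, Nkg7, Fam78a and Ehmt1, with Pearson correlations of 0.98 to 1.00. The closest to Esm1 over the same 7 arrays were Disp2, Ubap2l, Glis2, Dctn4 and Arsa, at 0.97 to 0.98. These probes were picked for a high value among many, and none of these 10 genes is a member. Over 8 arrays the mean of the 8 markers was followed most closely by LOC100503829, Tcf4, Tspan17, Thsd1 and Bcar1, at 0.96 to 0.97.

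Wider lists of vascular genes were examined to see how far the difference of Myct1 and Esm1 extended. In the 11 vascular lists together 106 genes could be tested. Their median difference was 0.09, and 74 of them had a higher and 32 a lower mean with the transgene. At an unadjusted p under 0.05 in limma 8 were higher and 1 lower, or 8.49% of the 106 against 2.09% of all probes, and 0 had an adjusted p under 0.05. The highest of the 106 was Pdgfb at 0.58, below Esm1 at 0.64, which had itself been chosen for a high value, but with flagged spots kept Ecscr at 0.57 lay above Esm1 at 0.50. The counts depended on wild-type replicate 3 and on the scaling. Without that array 57 of 98 genes were higher. An unadjusted p under 0.05 in limma was then found for 4, or 4.08% against 1.99% of all probes. Over the 8 arrays left out in turn this number ran from 3 (2.91% against 1.5%) to 18 (18% against 3.63%). With median-centring in place of loess 56 of 106 were higher and 0 of the higher ones had an unadjusted p under 0.05. In either direction 2 had such a p, or 1.89% against 1.84% of all probes. Agilent's processed signals and the authors' matrix each gave 3, or 2.83% against 2.56% of all probes. In the sample channel alone 59 of 106 were higher, and 4 had such a p, or 3.77% against 0.922%.

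Of 20 further general endothelial genes 13 could be tested, since 7 bright ones such as Cd34, Robo4 and Egfl7 had lost too many values to the outlier flag. Of the 13 tested 12 were higher, with a median of 0.24, while 50.4% of all probes were higher. Of the 13, 2 were higher with an unadjusted p under 0.05 in limma, against 1.12% of all probes. These were Ecscr, an endothelial surface protein, with a difference of 0.57 (SE 0.25), and Mmrn2, a matrix glycoprotein of vessels, with 0.24 (SE 0.11). When flagged spots were kept all 20 could be tested, 19 were higher, and the median was 0.23. Ecscr lay at -0.21, -0.32, -1.35 and 0.17 on the wild-type arrays and at 0.07, 0.19, 0.23 and 0.09 on the transgenic arrays, so that wild-type replicate 3 lay far below all other arrays. Without that array 7 of 12 general endothelial genes were higher, the median was 0.02, and 0 had an unadjusted p under 0.05 in limma.

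All 9 tested genes of the capillary list were higher, with a median of 0.23 and a range of 0.05 to 0.46. The highest was Apln, the peptide ligand apelin, at 0.76, 0.33, -0.08 and 0.76 on the wild-type arrays and 0.98, 0.78, 0.63 and 1.21 on the transgenic arrays, a difference of 0.46 (SE 0.19) with an unadjusted p of 0.0375 in limma. When flagged spots were kept 10 of 12 capillary genes were higher. Of 12 genes of arteries and veins the median was -0.01, with 5 higher and 7 lower, and the lowest of them, the venous chemokine receptor Ackr1, differed by -0.53 (SE 0.18) with 3 arrays left out and by -0.22 (SE 0.18) when their flagged spots were kept. The 6 lymphatic genes had a median of 0.0030 and ranged from -0.10 (Mmrn1) to 0.20 (Ccl21a). Wild-type replicate 3 was the lowest wild-type array for all 9 capillary genes, and without it 6 of 8 were higher, Fibin and Kit were lower, the median was 0.10 and 0 had an unadjusted p under 0.05 in limma. The difference between the lists was not tested.

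Among 7 ligands of the VEGF and angiopoietin systems, Angpt2, the angiopoietin released by endothelium itself, was the one with an unadjusted p under 0.05. It lay at 0.26, 0.03, 0.24 and 0.15 on the wild-type arrays and at 0.65, 0.47, 0.48 and 0.45 on the transgenic arrays. All transgenic arrays lay above all wild-type arrays, as in 0.915% of all probes with 8 values. The difference was 0.34 (SE 0.10), 1.27-fold. In limma p was 0.00503 unadjusted and 1 after Benjamini-Hochberg adjustment. The ligands as a whole were split, with 4 higher and 3 lower. Of 13 genes of VEGF co-receptors and Notch signaling 9 were higher, with a median of 0.04, and the co-receptor Nrp2 differed by 0.28 (SE 0.12). Without wild-type replicate 3, 4 of 11 of these were higher and the median was -0.03.

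Esm1 is known as a gene of tip cells, the leading cells of vessel sprouts, and a list of 12 other tip cell genes was read beside it. Of 11 tested the median was 0.19, with 8 higher and 3 lower, and 4 had an unadjusted p under 0.05, all of them higher, against 1.12% of all probes higher at this p and 50.4% higher with no threshold. Without wild-type replicate 3 the median was 0.14 and 1 of 9 had such a p. Besides Angpt2 and Apln these were Pdgfb, the growth factor that attracts pericytes, with 0.58 (SE 0.24), and the chemokine receptor Cxcr4 with 0.22 (SE 0.10). Pdgfb differed by 0.39 (SE 0.26) with an unadjusted p of 0.166 in limma when the flagged spot of wild-type replicate 4 was kept. Cxcr4 lay at 0.06, -0.02, -0.19 and 0.06 against 0.19, 0.15, 0.18 and 0.29, so that the groups did not overlap, with all transgenic above all wild-type arrays as in 0.915% of all probes. When flagged spots were kept 7 of 12 were higher, the median was 0.11 and 3 had an unadjusted p under 0.05.

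The other vascular lists held few genes with such a p. Of 14 endothelial transcription factors 10 were higher, with a median of 0.13, from -0.21 for Foxo1 to 0.37 for the ETS factor Fli1, and 0 had an unadjusted p under 0.05. Without wild-type replicate 3, 6 of these 14 were higher and the median was -0.02. There was also no such p in vascular tone and coagulation, where 7 of 10 were higher with a range from -0.10 (Plat) to 0.22 (Ace), or in endothelial activation, where 2 of 5 were higher with a range from -0.19 (Cxcl1) to 0.17 (Vcam1). Of 14 genes of pericytes and vascular smooth muscle 9 were higher, with a median of 0.09. The cation channel gene Trpc6 was the one with an unadjusted p under 0.05, and its difference was 0.37 (SE 0.12). All its transgenic values lay above all wild-type values, as in 0.915% of all probes with 8 values.

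Markers of other cells moved between the same arrays. All 9 tested genes of alveolar type II cells were lower in transgenic lungs, with a median of -0.50, while 50.4% of all probes were higher. Of the 9, 3 had an unadjusted p under 0.05 in limma, against 0.974% of all probes lower at this p. These were the lysozyme gene Lyz1 at -1.21 (SE 0.32), or -0.75 (SE 0.31) with the flagged spots of 2 transgenic arrays kept, and the surfactant protein genes Sftpa1 at -0.75 (SE 0.29) and Sftpd at -0.47 (SE 0.16). Without wild-type replicate 3 the median was -0.28 and 7 of the 9 were lower. The mean of the list ran from 0.02 to 1.30 on the wild-type arrays and from -0.21 to 0.42 on the transgenic arrays. On wild-type replicate 3, the lowest array for Kdr, Cdh5 and Cldn5, Sftpa1 was at 1.66 and on replicate 4 it was at -0.05. Of 7 adipose genes 6 were lower, with a median of -0.48, among them Adipoq (-0.89, SE 0.25) and Fabp4 (-0.87, SE 0.34). Of 5 cardiac muscle genes 3 were lower, with a median of -0.33 and Myh6 at -0.62 (SE 0.21).

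The remaining lists were split or centered near 0. Medians were -0.15 for 5 alveolar type I genes (from Ager at -0.27 to Akap5 at 0.10), 0.03 for 6 airway genes (from Scgb3a1 at -0.71 to Dynlrb2 at 0.08), -0.01 for 7 macrophage genes, 0.06 for 10 lymphocyte genes and -0.02 for 5 erythroid genes (from Hba-a1 at -0.51 to Alas2 at 0.35). Hba-a1 turned to 0.06 (SE 0.49) when the flagged spot of transgenic replicate 2, at 2.53, was kept. 1 gene in each of 2 lists had an unadjusted p under 0.05, Siglecf of macrophages at 0.28 (SE 0.10) and Ms4a1 of B cells at 0.63 (SE 0.25). Each gene of the 19 lists was well above background on at least 1 array. The part of these cells in the values of the endothelial genes was not tested.

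**Figure D5:**
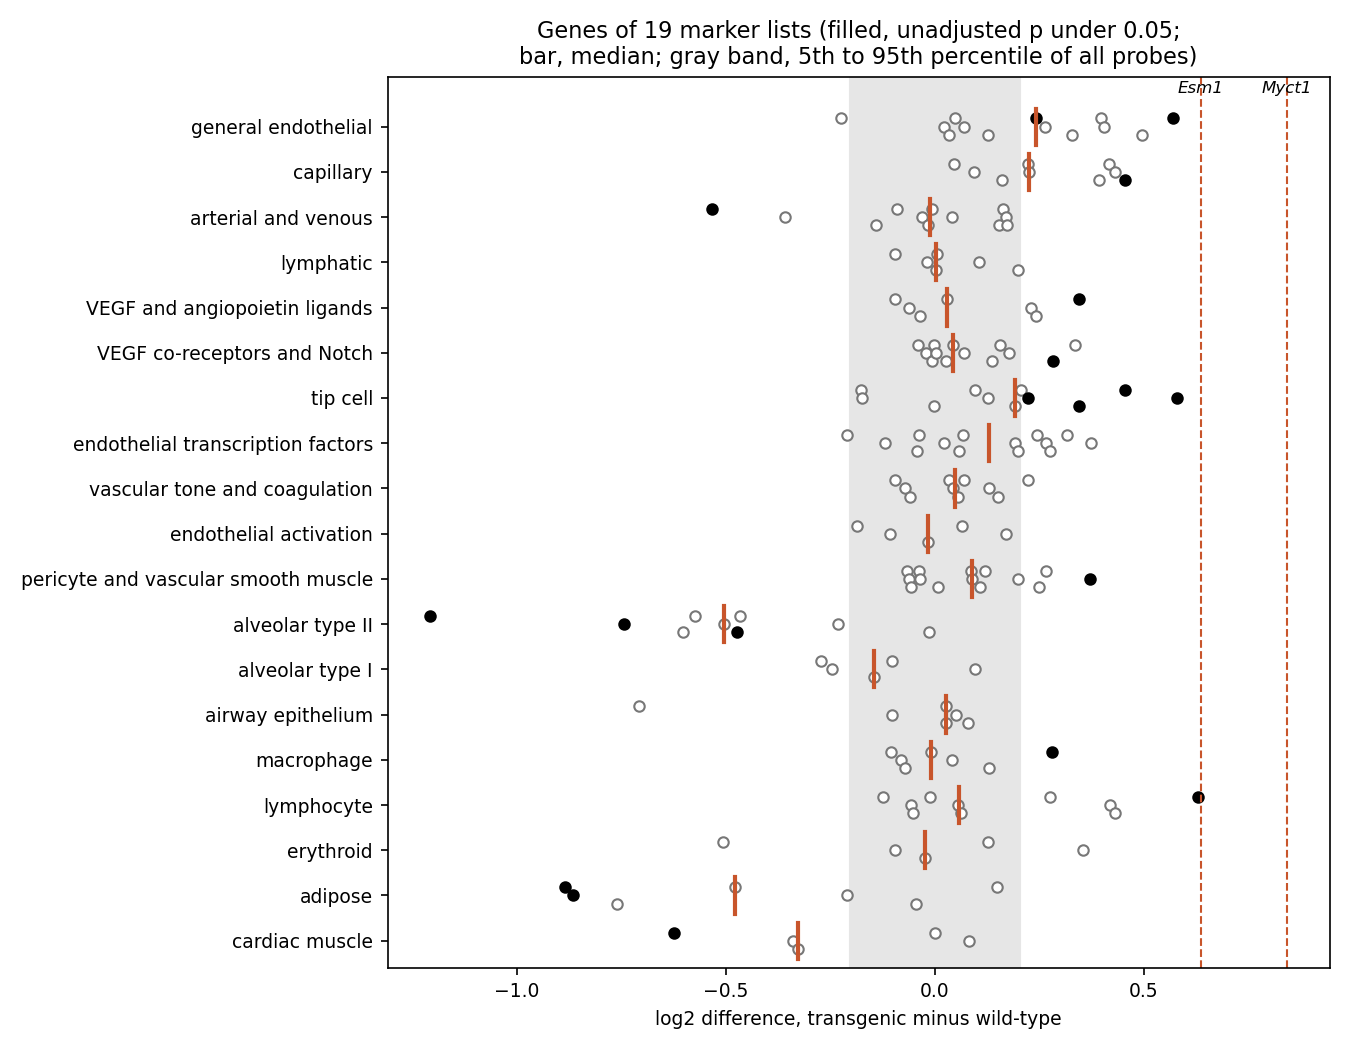
Log2 difference between transgenic and wild-type lungs (horizontal axis) for each tested gene of 19 marker lists. Filled points have an unadjusted p under 0.05, orange bars are list medians, the gray band runs from the 5th to the 95th percentile of all probes tested (-0.20 to 0.20), and dashed lines mark Myct1 and Esm1. General endothelial (median 0.24) and capillary genes (0.23) lie mostly to the right of 0, with medians of 0.02 and 0.10 without wild-type replicate 3, and alveolar type II genes (-0.50) lie to the left. The highest tested gene of the vascular lists, which leave out the members, is Pdgfb (0.58, or 0.39 with flagged spots kept).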

How the data were processed

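Lung RNA of 4 wild-type and 4 transgenic mice was grouped by genotype as the labels give it. Spot files deposited by the authors came from Feature Extraction of Agilent (11.0.1.1 per the labels, 10.10.1.1 per the file headers) and held median signal intensities, local backgrounds and flags per spot and channel. A matrix of log2 ratios, also deposited, had been filtered by the authors on flags in GeneSpring, and for 39811 probes with 1 spot it equalled the processed ratios within 0.001. Gene symbols came from this matrix, and 933 more probes were named by accession through RefSeq of GRCm38.p6.

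The log2 ratios used here were computed from the median signals, since the files held no mean signals, with limma 3.58.1 under R 4.3.3. Background was corrected with normexp (offset 50, fitted on spots without an outlier flag), control and flagged spots were left out, ratios were normalized by loess within arrays (span 0.3), and spots of a probe were averaged. Probes entered the test if their sample signal was well above background on 4 or more of 8 arrays and 2 or more values per genotype were left, and were tested with limma, two-sided, with Benjamini-Hochberg adjustment over 32645 probes. P-values measure the spread between mice, at most 4 per genotype and fewer where flagged spots were left out. In limma this spread is moderated by that of all probes. The fit was tested on simulated data.

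All 10 members were named by the brightest probe listed under their symbol, with their other probes given beside it. From each list the genes with an unadjusted p under 0.05 (at most 4) or else the highest and the lowest were named, with the 5 probes most like Myct1, Esm1 and the marker mean and Scgb3a2. Members and lists were chosen with earlier results of these data known. Another 24 settings were planned and 3, which kept flagged spots, were added after seeing the data, as were the rerun of all settings on the vascular lists and the list counts without wild-type replicate 3. Plots used matplotlib 3.10.9 in Python 3.11.15. The probe sequences and the proteins of the members were not used here.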

Additional observations from a re-analysis of the deposited data

How the results depend on the processing

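The 27 other settings moved the difference of Myct1 between 0.57 and 1.01 and that of Esm1 between 0.50 and 0.76, with the sign kept in all of them. In each of them 0 of the 8 general endothelial markers had an adjusted p under 0.05, where the probe mean of a gene gave no p. The same held for 0 of all probes tested, so this count does not set the markers apart. With an unadjusted p, 2 markers passed 0.05 with limma and 2 with the methods' t-test. The signs of Cdh5, Kdr, Tie1, Cldn5, Vwf and Eng were kept in all 27 settings. Pecam1 turned to 0.21 and Tek to 0.0687 when flagged spots were kept and the brightest probe, accession matches included, was taken, because other probes then stood for both genes. Kdr had an unadjusted p under 0.05 in 25 of 26 tests, the fit on the sample channel alone excepted, and Tek in 23 of 26. The median difference of the 8 markers ran from 0.01 to 0.27 when 1 mouse was left out.

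In the main fit 9 vascular genes, or 8.49%, had an unadjusted p under 0.05 in limma, against 2.09% of all probes. A normexp offset of 0 gave 3 genes (2.83% against 2.43% of all probes). Agilent's processed signals and the authors' matrix also gave 3 (2.83% against 2.56% in each). Arrays centred on their median gave 2 (1.89% against 1.84%), and the sample channel without the pool gave 4 (3.77% against 0.922%). The methods' t-test gave 5 (4.72% against 2.65%). Flagged spots kept with the slide as a block also gave 5 (4.1% against 3.54%). Leaving out 1 mouse gave from 3 (without transgenic replicate 2, 2.91% against 1.5% of all probes) to 18 (without wild-type replicate 4, 18% against 3.63%). There were 4 without wild-type replicate 2 (3.85% against 1.59%) and without wild-type replicate 3 (4.08% against 1.99%). Without transgenic replicate 1 there were also 4 (3.88% against 3.33%). Over all probes the count was 683, against 391 with normexp fitted on all spots, 301 in the sample channel alone, 1147 with array weights, 1212 with the slide as a block, 1202 with that block and flagged spots kept, 1171 without wild-type replicate 4 and 1062 without transgenic replicate 1. The cause was not tested.

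Replicate numbers were not taken to pair the mice, since deviations of mice with the same number correlated at -0.21 to 0.32 over 4 pairs. Replicates 1 and 2 of both genotypes also shared a slide. Mice of the same slide correlated at 0.07 to 0.32 over 4 pairs, and all 16 pairs of both genotypes at -0.32 to 0.32. The slide was not part of the main fit. With the replicate number as a block 0 of the 8 markers had an adjusted p under 0.05, as had 0 of all probes. The median difference of the markers was 0.16, Myct1 differed by 0.88 and Esm1 by 0.65. Cdh5 and Cldn5 joined Kdr and Tek with an unadjusted p under 0.05 in limma. So did 13 vascular genes, or 12.4%, against 2.71% of all probes. With the slide as a block instead, the median of the markers was 0.08, and of the 8 markers Kdr and Tek alone had such a p. Cdh5 then differed by 0.02 and Cldn5 by 0.35, with an unadjusted p of 0.894 and 0.137 in limma. Of the vascular genes 11 had a p under 0.05 with this block, or 10.5% against 3.71% of all probes. The 8 arrays limit precision, and bright probes lost the most values to the outlier flag.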
